A study of Mus musculus with 55 samples.

Results

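Line IL-2011 is 1 of 29 inbred lines of the Collaborative Cross (CC), a mouse panel in which each line carries a fixed mosaic of the genomes of 8 founder strains. Its liver transcriptome was compared with those of every other line in the series. The comparison held 2 mice labelled IL-2011 out of 55 mice, and the other 53 mice belonged to 28 lines. All mice were untreated males, and poly(A) RNA of the liver was sequenced. Both IL-2011 mice were 9.4 weeks old. They weighed 21.3 g (mouse 1) and 21.6 g (mouse 2), where the series spans 8 to 11.9 weeks and 12.8 to 38 g. The IL-2011 mice share their age and genome, and the labels give neither cage, day nor hour of dissection. Effects of the line and of shared handling therefore cannot be told apart.

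The liver clears drugs and foreign compounds by oxidation, conjugation and export, makes most plasma proteins, and handles fat, sugar and purine breakdown. Lines of the panel differ at many regulatory variants, so a line can carry unusual levels of single genes while most of its transcriptome stays within the spread of the panel. Plasma proteins of the acute phase response, by contrast, rise within hours of an inflammatory signal and can differ between mice of the same genotype.

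The libraries of the IL-2011 mice held 26.6 M and 24.8 M estimated fragments, where M is the SI prefix mega (20.5 M to 34.0 M in the series). Albumin (Alb), the main secretory product of hepatocytes, stood at 19473 and 27815 FPKM (fragments scaled by exon length and by library depth), inside the range of the other mice. The summed level of 11 hepatocyte markers was 60594 and 66226 FPKM, against 43589 to 94841 with a median of 68564, so the tissue label was met. Across 11284 genes the 2 mice had a Spearman correlation of 0.976 with each other. Mouse 1 correlated with the other mice at 0.880 to 0.939 and mouse 2 at 0.878 to 0.947, and line mates elsewhere at 0.926 to 0.992. The labels of lines IL-1052 and IL-2750 were in doubt. Each of their 5 mice correlated best with a mouse of the other of these lines (0.968 to 0.977), and the IL-1052 mice correlated with each other at 0.931. Counts are therefore also given without both lines.

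The rule kept genes whose FPKM reached 2 in at least 1 mouse, and then asked whether both IL-2011 mice lay above, or both lay below, every one of the other 53 mice. Of the 11284 genes, 114 lay above (1.01%) and 40 below (0.354%), together 154 (1.36%). Of the 114, 22 stayed under 2 FPKM in all other mice and entered only through IL-2011. Most gaps were narrow. The nearest other mouse was separated by less than 1.2-fold for 82 of the genes above and 34 of the genes below, and by at least 2-fold for 5 and 1. The 15 other lines with 2 mice had 2 to 943 such genes (median 106), and 3 of them had more than IL-2011, so the count itself did not set the line apart. Without IL-1052 and IL-2750, 119 genes lay above and 49 below. At the edge of the rule, Ostb (5.74 and 3.19 FPKM, highest other mouse 3.18) and 9030025P20Rik (5.92 and 6.43, highest other 5.90) were just above. Gnl1 (4.45 and 3.79, lowest other 4.48) and Pmf1 (6.52 and 6.58, lowest other 6.64) were just below. Just inside were Spna2 (lower mouse 16.25) and 1 of 2 features named Ufm1 (2.24), each equal to the highest other mouse, and Cct6a (higher mouse 21.67) and Aaas (2.22), each equal to the lowest.

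**Figure D1:**
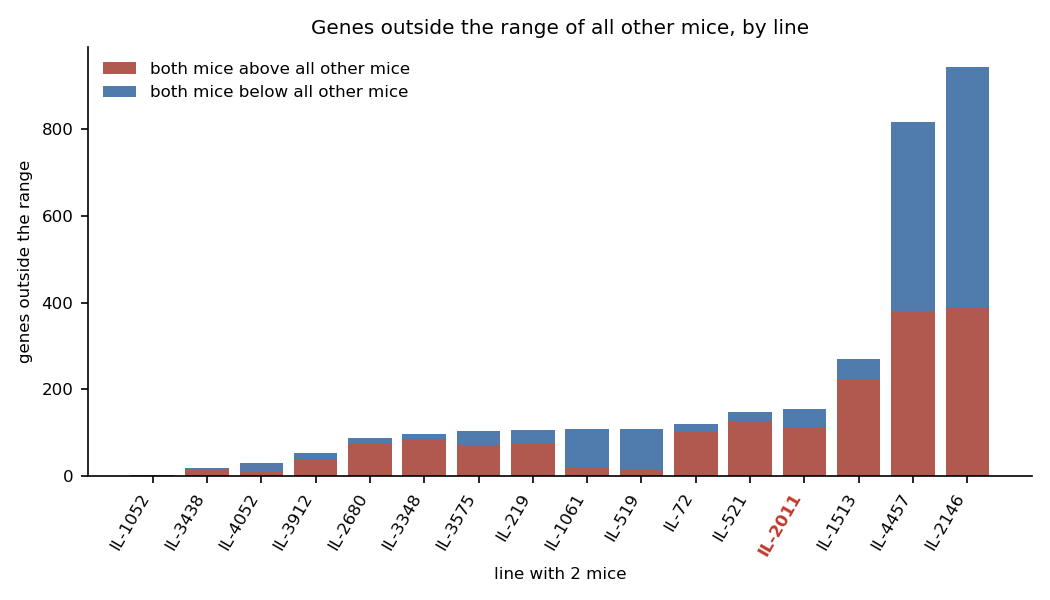
Number of genes (y axis) for which both mice of a line lay above (red) or below (blue) all 53 mice of the other lines, for the 16 lines with 2 mice (x axis, ordered by the sum). IL-2011 had 114 and 40 genes and stood 13th of 16, far under IL-4457 and IL-2146.

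The average of the IL-2011 mice was also tested against the mean of the other 28 lines with edgeR's quasi-likelihood test over all genes. The test called 2665 genes at an adjusted p under 0.05 (23.6%), 1563 higher (13.9%) and 1102 lower (9.77%). These p-values rest on the spread between mice of a line. A line that departs from the panel's average within the usual variation among lines can therefore pass, and with 29 line means as the units (limma) 33 genes were called, 30 higher (0.266%) and 3 lower (0.0266%), together 0.292%. Mouse 2 alone gave 922 calls (8.17%; 5.26% higher and 2.91% lower) and mouse 1 alone 1837 (16.3%; 9.71% and 6.57%). In all 3 fits 648 genes were called in the same direction. All 154 genes outside the range were called by edgeR, which is the same contrast and adds no support. The fitted differences and adjusted p-values given for such genes describe the values that the rule used.

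The largest separation belonged to a pseudogene. Gm10086 (pseudogene, NCBI build 37, chr5:108946182-108946589, plus strand) stood at 74.71 and 64.95 FPKM, from 660 and 502 estimated fragments. The other 53 mice had at most 0.22 FPKM, and 50 of them had 0. The gene resembles Rpl34, which encodes a protein of the large ribosomal subunit, in 98.0% of 406 aligned bases. The stretch with all 8 differing bases, in capitals, is shown because only these letters separate the aligned copies:
Gm10086: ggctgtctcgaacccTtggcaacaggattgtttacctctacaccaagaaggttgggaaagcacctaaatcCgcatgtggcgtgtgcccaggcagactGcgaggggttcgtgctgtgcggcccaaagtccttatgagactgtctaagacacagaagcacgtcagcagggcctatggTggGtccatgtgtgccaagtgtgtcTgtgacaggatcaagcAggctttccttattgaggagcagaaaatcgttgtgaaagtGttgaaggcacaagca
Rpl34: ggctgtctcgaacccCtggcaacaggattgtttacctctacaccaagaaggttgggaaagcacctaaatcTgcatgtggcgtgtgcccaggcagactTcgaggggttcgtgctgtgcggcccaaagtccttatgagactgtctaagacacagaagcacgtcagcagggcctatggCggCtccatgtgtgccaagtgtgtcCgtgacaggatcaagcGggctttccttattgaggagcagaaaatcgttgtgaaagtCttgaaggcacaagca
The upper sequence is the reference genome at chr5:108946259-108946530 and the lower one is positions 152 to 423 of a GENCODE transcript of Rpl34, and all 8 differences lie in the 354 coding bases. Rpl34 itself stood at 145 and 131 FPKM, inside the range of the other mice (16.8 to 306, median 193). Gm10154, a predicted coding gene that is 98.5% identical to Gm10086, was listed at 0 in every mouse. A second feature, ENSMUSG00000093686, for which the annotation used here holds no name or position, stood at 28.98 and 20.23 FPKM and was listed at 0 in all 53 other mice. Which locus the fragments came from was not tested.

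Further copies of coding genes were above the range, and 12 of the 114 genes (10.5%) are annotated as pseudogenes, as are 3.66% of all genes examined. Among the 12, Gm10086, Gm12187 (highest other mouse 0.97 FPKM) and Gm17383 (1.4) passed the filter only through IL-2011. The filter thus adds to the first share. Rpl9-ps4, annotated as protein coding, stood at 90.46 and 59.51 FPKM (other mice 0 to 36.6, median 0) and is 99.6% identical to Rpl9. Gm12141 stood at 6.21 and 9.80 (0 to 3.51) and is 99.0% identical to Hspd1, the mitochondrial chaperonin. Rpl9 itself was not called, at 267 and 293 FPKM (median of the others 279), and Hspd1 was called lower, at 128 and 175 (median 193). Vdac3-ps1, Rps15-ps2, Gm11826 and Gm17383, which match Vdac3, Rps15, Rpl26 and Tuba1b in 97.9% to 99.5% of their bases, were above the range too. RSEM shares fragments among such copies, so levels of these genes are uncertain.

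**Figure D2:**
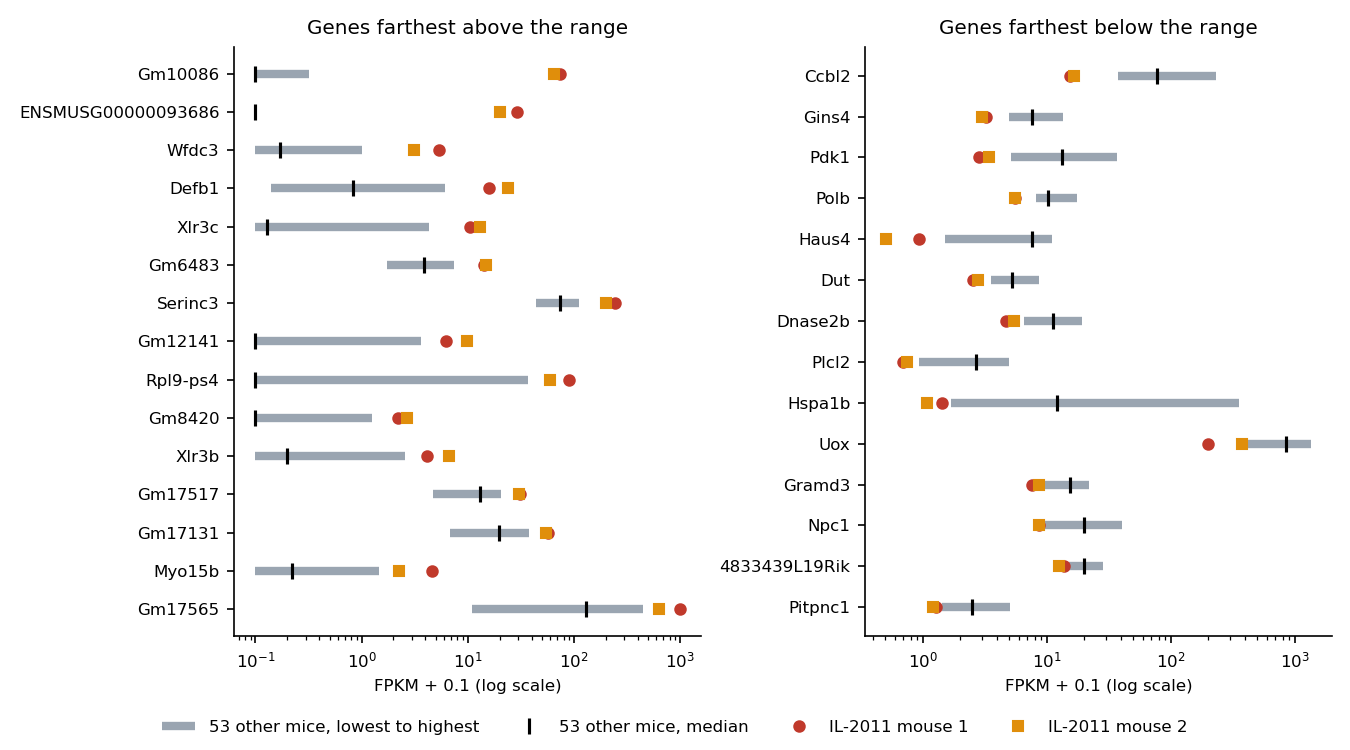
Level of the 15 genes farthest above (left) and 14 of the 15 farthest below (right) the range of the other mice, as FPKM plus 0.1 on a log axis. Grey bars span the lowest to the highest of 53 other mice, black ticks are their medians, and the red circle and orange square are the IL-2011 mice. Gm10086 has the widest gap on the left and Ccbl2 on the right.

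Among coding genes above the range, Serinc3 combined a high level with a wide gap. Serinc3 encodes a membrane protein of the serine incorporator family. It stood at 246 and 202 FPKM, and the other mice at 43.6 to 113 with a median of 73.6, with no overlap. The fitted log2 difference was 1.77 ± 0.08 (SE, edgeR, adjusted p = 4.54e-16). Wfdc3, a gene of the whey acidic protein family of protease inhibitors about 1 Mb away on chromosome 2, stood at 5.26 and 3.02 FPKM against 0 to 0.90. Defb1, an antimicrobial beta-defensin of epithelia, stood at 15.8 and 23.7 FPKM where the other mice reached 0.04 to 6.07 (median 0.73). Its log2 difference was 4.80 ± 0.29 (adjusted p = 5.55e-13). Xlr3b and Xlr3c, neighbouring members of a lymphocyte-regulated gene family on the X chromosome, stood at 4.04 and 6.58 FPKM and at 10.43 and 12.84 FPKM, against at most 2.45 and 4.25. These family members resemble each other in sequence, and fragments may be shared between them.

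The remaining genes with the widest gaps above were mostly of unknown function or noncoding. Gm17565, a lincRNA on chromosome 4, was the most abundant at 998 and 637 FPKM (other mice 10.8 to 448, median 131). Gm17131 stood at 57.13 and 55.12 FPKM (6.69 to 37.71). Gm17132, which lies directly beside Gm17131, stood at 66.07 and 59.50 (6.01 to 45.84). Both are annotated as pseudogenes. Gm17131 is 97.8% identical to Gm17492 and Gm17132 88.6% identical to A830010M20Rik over the aligned bases, so fragments may be shared and these levels are uncertain. Gm17517 stood at 31.01 and 30.16 (4.58 to 20.49). The unconventional myosin gene Myo15b stood at 4.56 and 2.17 (0 to 1.36), and St6galnac2, a sialyltransferase gene within 1 Mb of it, at 2.92 and 1.49 (0.03 to 1.19). Gm8420 reached 2.13 and 2.57 (0 to 1.16). Malat1, an abundant nuclear noncoding RNA named here after its values were seen, stood at 92.91 and 84.55 against 6.39 to 65.30.

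Ccbl2 had the widest gap among the genes below the range. It encodes a kynurenine aminotransferase that also cleaves cysteine conjugates of foreign compounds. It stood at 15.47 and 16.51 FPKM, and the other 53 mice at 37.25 to 233 with a median of 77.92. The lowest other mouse had more than both, and the log2 difference was -2.41 ± 0.27 (edgeR, adjusted p = 8.09e-08). With lines as units the adjusted p was 0.098. The isoform that carried most of Ccbl2 in the panel (median 84.3%) took 74.8% and 89.1% in IL-2011, inside the range of 71.3% to 92.3%.

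Uox and Dnase2b lie about 4 Mb from Ccbl2 on chromosome 3 and were below the range as well. Uox encodes urate oxidase, which turns uric acid into allantoin in mouse liver. It stood at 200 and 373 FPKM, and the other mice at 420 to 1347 (median 857). The log2 difference was -1.36 ± 0.18 (adjusted p = 1.26e-06). Dnase2b, an acid endonuclease gene next to it, stood at 4.63 and 5.36 FPKM (6.42 to 19.03).

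Haus4, a subunit of the augmin complex of the mitotic spindle, stood at 0.84 and 0.41 FPKM, where the other mice had 1.42 to 11.03 (median 7.52). Its log2 difference was -3.50 ± 0.24 (edgeR, adjusted p = 5.27e-12). Gins4 and Polb are neighbours on chromosome 8 with roles in DNA replication and base excision repair. Gins4 stood at 3.15 and 2.90 FPKM (4.92 to 13.36) and Polb at 5.45 and 5.42 (8.05 to 17.58). Dut, which removes dUTP from the nucleotide pool, stood at 2.43 and 2.70 FPKM (3.48 to 8.51).

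Other genes below the range serve metabolism. Pdk1, a kinase that inhibits pyruvate dehydrogenase, stood at 2.76 and 3.34 FPKM (5.03 to 36.79, median 13.2), with a log2 difference of -2.28 ± 0.28 (edgeR, adjusted p = 6.26e-07). With lines as units (limma) the adjusted p of Pdk1 was 0.190, against 0.0023 for Haus4, 0.0165 for Gins4 and 0.0194 for Uox. Npc1, which exports cholesterol from lysosomes, stood at 8.60 and 8.56 (9.43 to 40.35, median 20.06). Fads1, the delta-5 desaturase of polyunsaturated fatty acids, stood at 79.56 and 80.94 (87.87 to 252), and Mgst1, a membrane-bound glutathione transferase, at 2016 and 2137 (2174 to 4449). Fads1 and Mgst1 lay close to the lowest other mouse, and neither passed with 1 IL-2011 mouse left out (adjusted p of 0.0656 to 0.118). Hspa1b, an inducible heat shock gene, stood at 1.34 and 0.98 FPKM in a panel that spanned 1.59 to 358. Plcl2, Gramd3, Pitpnc1 and 4833439L19Rik were also among the 15 with the widest gaps below, with gaps of less than 1.2-fold on the scale of FPKM plus 0.5.

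Some genes outside the range had neighbours that were outside it too. Of 153 such genes with a position, 47 had another one within 1 Mb and 85 within 5 Mb. Genes linked by distances of up to 5 Mb formed 27 stretches, and 6 of these held at least 4 genes. Each stretch starts and ends at a gene outside the range, which raises the share of such genes inside it. No such counts were made for other sets of genes, so clustering was not tested. On chromosome 8, 8 of 26 genes examined between 14881335 and 24348140 were outside the range. Gm6483 (14.29 and 14.81 FPKM, others 1.63 to 7.27), 6820431F20Rik (13.48 and 13.41, others 2.47 to 11.74), Defb1 and the copper transporter gene Atp7b (6.06 and 7.16, others 2.02 to 6.01) lay above. Cln8, Vps36, Polb and Gins4 lay below. On chromosome 11, a stretch of 16.8 Mb from 41312178 to 58128129 held 8 of 108 genes examined, all above, among them Gm12141 and the antimicrobial peptide gene Leap2 (173 and 157 FPKM, others 53.6 to 152). A segment of 1.17 Mb on chromosome 5 held Gm10086, A830010M20Rik and Dgkq (5.34 and 5.28 FPKM, others 1.82 to 5.21). Founder genotypes of the line were not used here, and whether a stretch follows 1 founder segment was not tested.

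The study lists 40 drug disposition genes that it chose on these samples for regulation by nearby variants, so their counts are no independent evidence of a direction. Of 24 genes for oxidation, reduction and hydrolysis, edgeR called 4 higher and 8 lower with both mice, but 3 higher and 2 lower from mouse 2 alone. Of 16 for conjugation, transport and regulation it called 1 higher and 7 lower, and 1 and 3 from mouse 2 alone. Over all genes the shares were 13.9% higher and 9.77% lower. The median differences on the log2(FPKM + 1) scale were -0.43 and -0.34, where the median of all genes was -0.01. Only Ccbl2 was outside the range.

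Several of these genes had low values in both mice. Ugt3a2, a UDP-glycosyltransferase, stood at 4.19 and 5.22 FPKM, and the other mice at 3.30 to 166 with a median of 73.45. Its log2 difference was -3.57 ± 0.49 (adjusted p = 2.63e-06), but 2 other mice lay below both. Cyp2c44, a P450 that acts on fatty acids, stood at 16.12 and 13.01 (6.98 to 377, median 95.19), with -2.24 ± 0.22 (adjusted p = 1.22e-08). Ugt1a10 stood at 0.92 and 1.25 (0.56 to 175, median 3.39) and shares its last exons with the other Ugt1a genes, so its estimate is uncertain. Adhfe1, an iron-containing alcohol dehydrogenase, stood at 20.89 and 21.52 (16.70 to 52.59, median 36.03), below 52 of the other mice. Higher values were found for Cyp3a13 (101 and 88.2 FPKM, median of the others 37.93), for Glo1, which detoxifies methylglyoxal (642 and 807, median 288), and for the acetyltransferase Nat8 (21.91 and 26.41, median 5.79). None of these genes passed with lines as units.

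**Figure D3:**
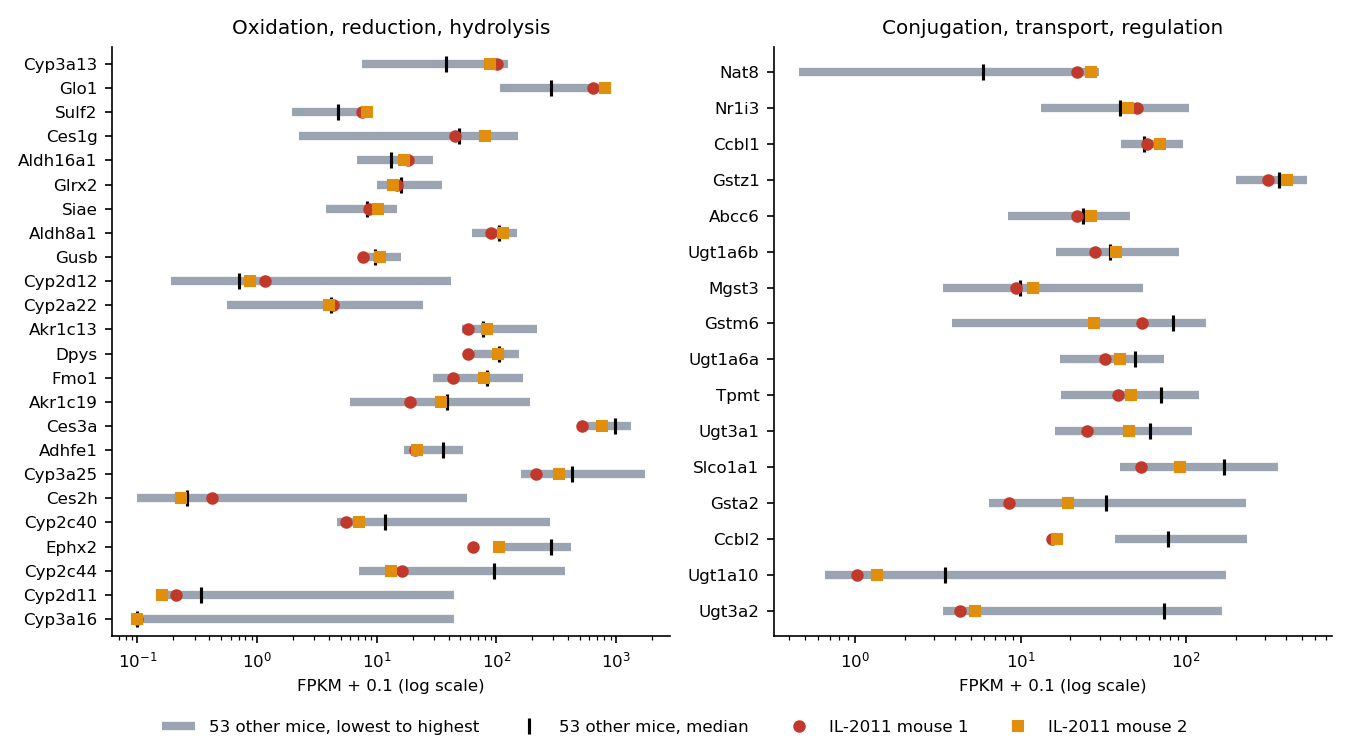
Level of 24 drug disposition genes of oxidation, reduction and hydrolysis (left) and 16 of conjugation, transport and regulation (right), as FPKM plus 0.1 on a log axis and ordered by the fitted difference. Bars, ticks and points are as in the plot of the genes farthest outside the range. Only Ccbl2 has both IL-2011 mice outside the grey bar.

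Wider families of detoxification genes gave more lower than higher calls, and more of these from mouse 1 alone than from mouse 2 alone, as did all genes (6.57% and 2.91% lower). Of 34 P450 genes of xenobiotic metabolism edgeR called 1 higher (Cyp2c67, 567 and 755 FPKM, median of the others 339) and 10 lower. From mouse 2 alone edgeR called none lower, and 6 of the 34 had an unadjusted p under 0.05 in either direction. Of 11 carboxylesterases 5 were called lower and none higher, where 9.77% of all genes were called lower and 13.9% higher. Ces1f stood at 52.03 and 129 FPKM (median of the others 260) and was the one called with mouse 2 alone (adjusted p = 0.00328). Of 20 glucuronosyl- and sulfotransferases 3 were called higher and 5 lower. The sulfotransferase Sult1b1 stood at 4.30 and 3.40 FPKM (3.53 to 43.31, median 19.22) and Ugt2a3 at 50.51 and 62.22 (55.96 to 182, median 127). Of 18 glutathione transferases 6 were called lower and none higher. Gstt1 showed the widest change, with 6.32 and 4.29 FPKM where the median of the others was 154 (1.55 to 266), and its log2 difference of -4.56 ± 0.50 held with either mouse left out (adjusted p of 4.47e-05 and 6.50e-05). Gstt2, its neighbour on chromosome 10, stood at 11.28 and 9.16 (median 29.08). A few other mice shared these low levels, and 3 lay below both for each gene. Of 15 antioxidant genes regulated by Nrf2, 3 were called higher and 4 lower, among them the epoxide hydrolase Ephx1 (57.39 and 149 FPKM, median 213).

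Several lists of central metabolism gave more lower than higher calls with both mice, where 13.9% of all genes were called higher and 9.77% lower, and fewer lower calls with mouse 2 alone. For gluconeogenesis and glycogen 6 of 12 were called lower and none higher. Pck1, the first committed enzyme of gluconeogenesis, stood at 256 and 247 FPKM (151 to 1536, median 746), with -1.44 ± 0.33 (adjusted p = 0.00168), and was the one called with mouse 2 alone (0.0431). For fatty acid oxidation and ketogenesis 10 of 27 were called lower, such as Hadh (76.09 and 104 FPKM, median 132) and Acaa1a (47.79 and 56.57, median 74.45), and 1 higher. The higher one was Cyp4a14, a fatty acid omega-hydroxylase, at 37.71 and 209 FPKM (0 to 582, median 1.98). From mouse 2 alone 1 gene was called lower and 1 higher. For lipogenesis 2 of 21 were higher and 7 lower, for cholesterol synthesis 1 and 2 of 23, and for lipid droplets 1 and 3 of 13. For cholesterol synthesis the median difference was 0.04 in mouse 1 and -0.51 in mouse 2 (log2(FPKM + 1) scale), so the lower values lay in mouse 2. For apolipoproteins the counts were 3 and 5 of 14, and for bile acid genes 1 and 4 of 22. From mouse 2 alone the lower calls were 0 in lipogenesis and 1 in each of the other 4 lists. In the last list the bile acid exporter subunit Ostb was higher and Slco1a4 lower (3.53 and 2.95 FPKM, median 8.24). Apoa4 stood at 774 and 1095 FPKM (median 163, log2 difference 2.22 ± 0.38, adjusted p = 8.23e-05) and Apoe at 5952 and 9022 (median 11771). Fitm1, which promotes lipid droplet formation, was listed at 0 in both mice and had a median of 7.95 in the others, of which 1 was at 0 too.

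The largest group of higher calls was the acute phase response, where 13.9% of all genes were called higher and 9.77% lower. It rested mostly on mouse 1, with a smaller median rise in mouse 2. Of 27 genes edgeR called 22 higher and 1 lower with both mice, 23 and 1 with mouse 1 alone, and 1 and 1 with mouse 2 alone. Saa1 and Saa2, the serum amyloid A proteins that can rise by orders of magnitude in inflammation, stood at 26264 and 30051 FPKM in mouse 1. In mouse 2 they stood at 1352 and 530, and the medians of the other mice were 184 and 65.8. Saa3 stood at 1179 in mouse 1 and 9.10 in mouse 2 (1.00 to 250, median 4.60), so that mouse 1 exceeded every other mouse. Orm2, an alpha-1-acid glycoprotein, stood at 1311 and 77.8 (3.77 to 3479, median 16.1). Without mouse 1, adjusted p-values of these 4 genes were 0.220 to 0.742.

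Genes of inflammation beyond these 4 also differed between the line mates. The iron-binding Lcn2 was at 442 in mouse 1 but 3.95 in mouse 2, under the median of 6.27. A2m, the protease inhibitor alpha-2-macroglobulin, was not in the list and stood at 6.95 and 0.03 FPKM and at no more than 0.21 elsewhere. A2m and Lcn2 were named after their values were seen. The median difference of the list from the other lines was 1.83 in mouse 1 and 0.50 in mouse 2 on the log2(FPKM + 1) scale. Serpina3m (734 and 794 FPKM, median of the others 312) was the gene called higher with mouse 2 alone. Hamp2, a gene of the hepcidin family, was lower in both (106 and 57.6 FPKM, others 77.5 to 13486, median 462). Across all 11284 genes, 301 differed by at least 2-fold between the IL-2011 mice on the scale of FPKM plus 1, and in 5 of the 15 other lines with 2 mice more genes did.

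Promoters of the 4 leading acute phase genes are shown because these genes were high in mouse 1. They are RefSeq sequences on GRCm38.p6, 250 bases before to 50 after the start, and capitals mark letters TTGCNNAA or TTNNGCAA (either strand), the core bound by C/EBP factors:
Saa1: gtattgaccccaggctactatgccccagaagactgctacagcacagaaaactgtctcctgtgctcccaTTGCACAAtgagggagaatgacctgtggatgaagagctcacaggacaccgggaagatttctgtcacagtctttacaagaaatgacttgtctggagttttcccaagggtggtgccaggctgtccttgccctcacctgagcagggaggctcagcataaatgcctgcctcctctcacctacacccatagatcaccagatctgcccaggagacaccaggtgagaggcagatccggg
Saa2: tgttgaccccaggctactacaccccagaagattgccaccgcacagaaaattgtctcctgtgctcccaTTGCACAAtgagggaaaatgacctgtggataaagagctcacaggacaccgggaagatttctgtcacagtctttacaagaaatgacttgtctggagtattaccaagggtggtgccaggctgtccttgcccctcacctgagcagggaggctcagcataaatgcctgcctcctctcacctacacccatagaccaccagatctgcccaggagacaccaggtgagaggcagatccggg
Saa3: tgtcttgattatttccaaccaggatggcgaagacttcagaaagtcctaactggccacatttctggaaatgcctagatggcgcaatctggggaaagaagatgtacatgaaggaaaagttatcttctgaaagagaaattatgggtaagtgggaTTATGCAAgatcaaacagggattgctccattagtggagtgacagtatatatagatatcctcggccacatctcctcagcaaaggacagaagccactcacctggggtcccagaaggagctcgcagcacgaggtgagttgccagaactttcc
Orm2: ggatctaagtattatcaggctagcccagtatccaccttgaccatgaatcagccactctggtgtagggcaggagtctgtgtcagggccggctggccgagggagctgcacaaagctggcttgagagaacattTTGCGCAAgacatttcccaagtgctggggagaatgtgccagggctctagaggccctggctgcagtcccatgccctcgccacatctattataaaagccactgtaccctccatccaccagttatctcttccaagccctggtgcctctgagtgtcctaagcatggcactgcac
They lie at chr7:46742931-46743230 (minus strand), chr7:46751583-46751882 (plus), chr7:46715627-46715926 (minus) and chr4:63362199-63362498 (plus). Each holds 1 match, and 10.8% of 32851 promoters of the same length hold at least 1. No match was found in these windows for the fixed NF-kB pattern searched (in 1.63% of all promoters) or for TTCNNNGAA, the STAT core (8.30%). Looser forms of the NF-kB site were not searched, so the absence of NF-kB sites from these promoters was not tested.

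**Figure D4:**
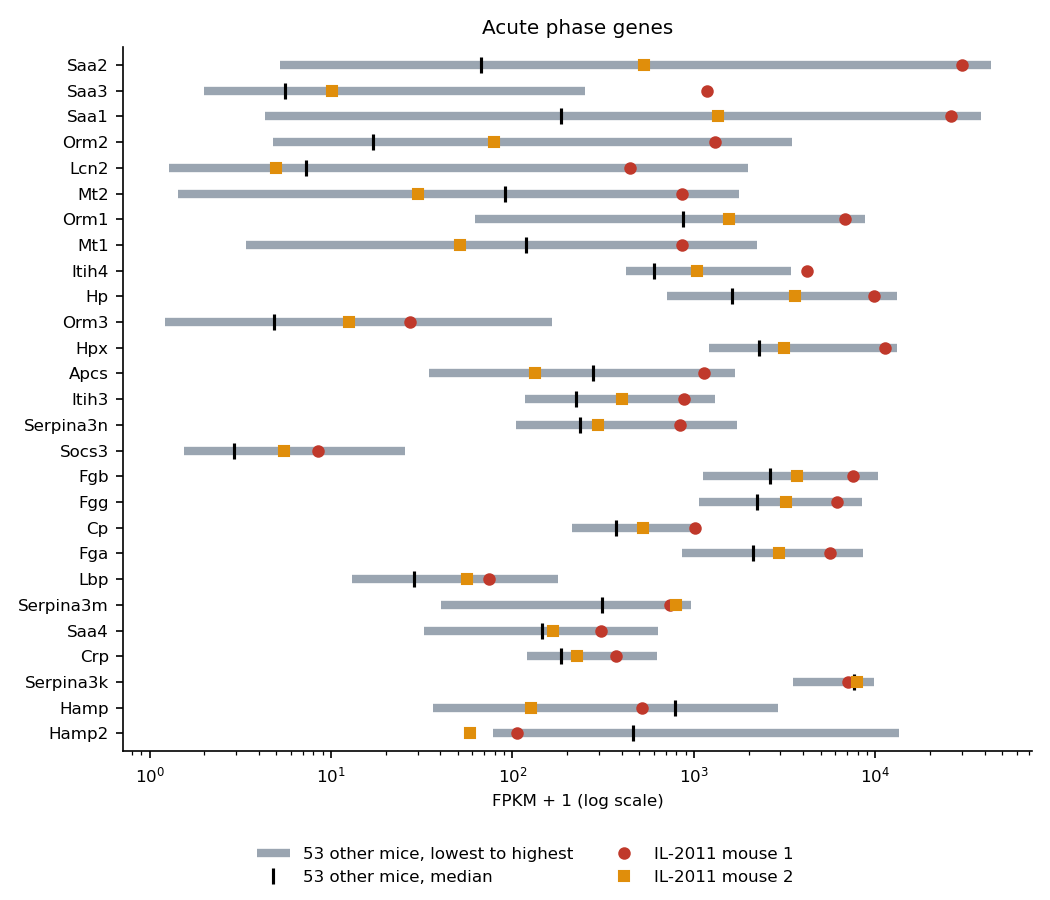
Level of 27 acute phase genes as FPKM plus 1 on a log axis, ordered by the ratio of mouse 1 to the median of the other mice. Grey bars span the 53 other mice and black ticks their medians. Mouse 1 (red) lies far right of mouse 2 (orange) for Saa1, Saa2, Saa3, Orm2 and Lcn2, and outside the bar for Saa3, Itih4 and Cp.

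Few markers of other cell types were called, and these were higher in 2 lists and lower in 2. Of all genes 13.9% were called higher and 9.77% lower. The neutrophil and monocyte list summed to 21.4 and 22.8 FPKM (0.61 to 147, median 5.22), and 2 of its 6 measured members were called higher. These were S100a9 (11.52 and 11.91 FPKM, adjusted p = 0.0058) and S100a8 (7.25 and 5.46, 0.0490), and neither was called with 1 mouse. The sums were alike in both mice, unlike the acute phase genes. In whole liver, more cells of a type and more RNA per cell cannot be told apart. The cholangiocyte list summed to 143 and 132 FPKM (9.67 to 215, median 31.0), and Spp1, osteopontin, made up most of this with 133 and 124 (median 24.3, log2 difference 2.23 ± 0.27, adjusted p = 4.71e-07). Of its 5 measured members 2 were called higher, while Krt19 (0.55 and 0.33, median 0.51) and Cd24a (0.65 and 0.75, median 0.94) were not called. The part of these cells in the results was not tested. No member of the Kupffer cell, stellate cell or lymphocyte lists was called by edgeR or DESeq2 (1, 1 and 0 had an unadjusted edgeR p under 0.05). Of 13 endothelial markers 1, Dnase1l3, was lower (3.60 and 2.90 FPKM, median 5.58, edgeR adjusted p = 0.0390), and 6 other mice lay below both. With scaling by total count alone, 0 of the 13 were called. The endothelial list summed to 77.3 and 63.9 FPKM, near the median of 71.6. Of 16 genes of adipose, gallbladder, pancreas and kidney tissue 11 were at 0 in both mice. The erythroid list summed to 701 and 1637 FPKM, on either side of the median of 1363. In this list Alas2, the heme synthesis enzyme of red cell precursors, was lower (5.72 and 9.81 FPKM, 2.52 to 124, median 62.5, edgeR adjusted p = 7.61e-06), while Hba-a2 (225 and 520, median 466) was not called.

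Clock genes departed in the same direction in both mice. In the circadian clock, Arntl (Bmal1) drives the Per genes and Dbp, which peak at another hour. Arntl stood at 6.78 and 8.39 FPKM, where the other mice had 0.11 to 8.32 with a median of 1.76, and its log2 difference was 2.29 ± 0.30 (adjusted p = 1.63e-06). Dbp stood at 0.75 and 1.73 (0.50 to 140, median 27.9), with -4.44 ± 0.83 (adjusted p = 0.000201). Per3 stood at 0.16 and 0.28 (0.22 to 8.37, median 1.56) and Tef at 8.87 and 11.08 (median 22.05). Of 18 clock genes 2 were called higher and 9 lower, where 13.9% of all genes were called higher and 9.77% lower. Mouse 2 alone gave 1 and 4, and mouse 1 alone 1 and 5. No clock gene was outside the range, and none passed with lines as units (limma; 2 had an unadjusted p under 0.05). The hour of dissection was not given in the labels, so that line and hour cannot be told apart for these genes.

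Stress and immune lists were mixed, where 13.9% of all genes were called higher and 9.77% lower with both mice. Of 26 heat shock and endoplasmic reticulum chaperones 6 were called higher and 8 lower, but 0 and 3 from mouse 2 alone, where 12 had an unadjusted edgeR p under 0.05. Dnajb1, a cytosolic cochaperone, stood at 5.27 and 3.82 FPKM (4.27 to 477, median 11.13). Sdf2l1, a chaperone of the endoplasmic reticulum, stood at 59.21 and 36.94 (6.59 to 40.84, median 17.19), called from mouse 1 alone but not from mouse 2 alone (adjusted p = 0.212). Of 34 interferon-stimulated genes 8 were called higher and 1 lower, but 1 and 1 from mouse 2 alone. The lower one was Iigp1, a GTPase that attacks parasite vacuoles, at 0.37 and 0.40 FPKM where the median of the others was 118 and their lowest 0.26. Of 23 MHC genes 2 were called higher and 4 lower, and 0 and 3 from mouse 2 alone. H2-T22 stood at 6.20 and 6.64 (4.47 to 96.4, median 43.6) and H2-T23 at 23.2 and 31.0 (19.3 to 277, median 128). MHC genes vary in sequence among founders and resemble each other, so that these estimates are uncertain. Immediate early genes were called lower in 4 of 19 and higher in none, with Jun at 1.71 and 1.54 FPKM (median 3.97), and none was called by edgeR from mouse 1 alone or mouse 2 alone (4 and 2 had an unadjusted p under 0.05).

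The remaining lists were called in both directions or not at all, where 13.9% of all genes were higher and 9.77% lower. Complement and coagulation had 5 higher and 5 lower of 34, with factor F9 at 104 and 120 FPKM (median 75.3) and F5 at 33.86 and 47.49 (median 63.3). Urea cycle and periportal genes had 3 and 3 of 18, pericentral genes 3 and 3 of 15, growth hormone targets and male-biased genes 3 and 4 of 20, and cell cycle genes 1 and 1 of 8. None of 16 female-biased genes was called by edgeR, where 4 had an unadjusted p under 0.05, but DESeq2 called 6. None of 13 mitochondrially encoded genes was called by edgeR or DESeq2, and 1 had an unadjusted edgeR p under 0.05.

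**Figure D5:**
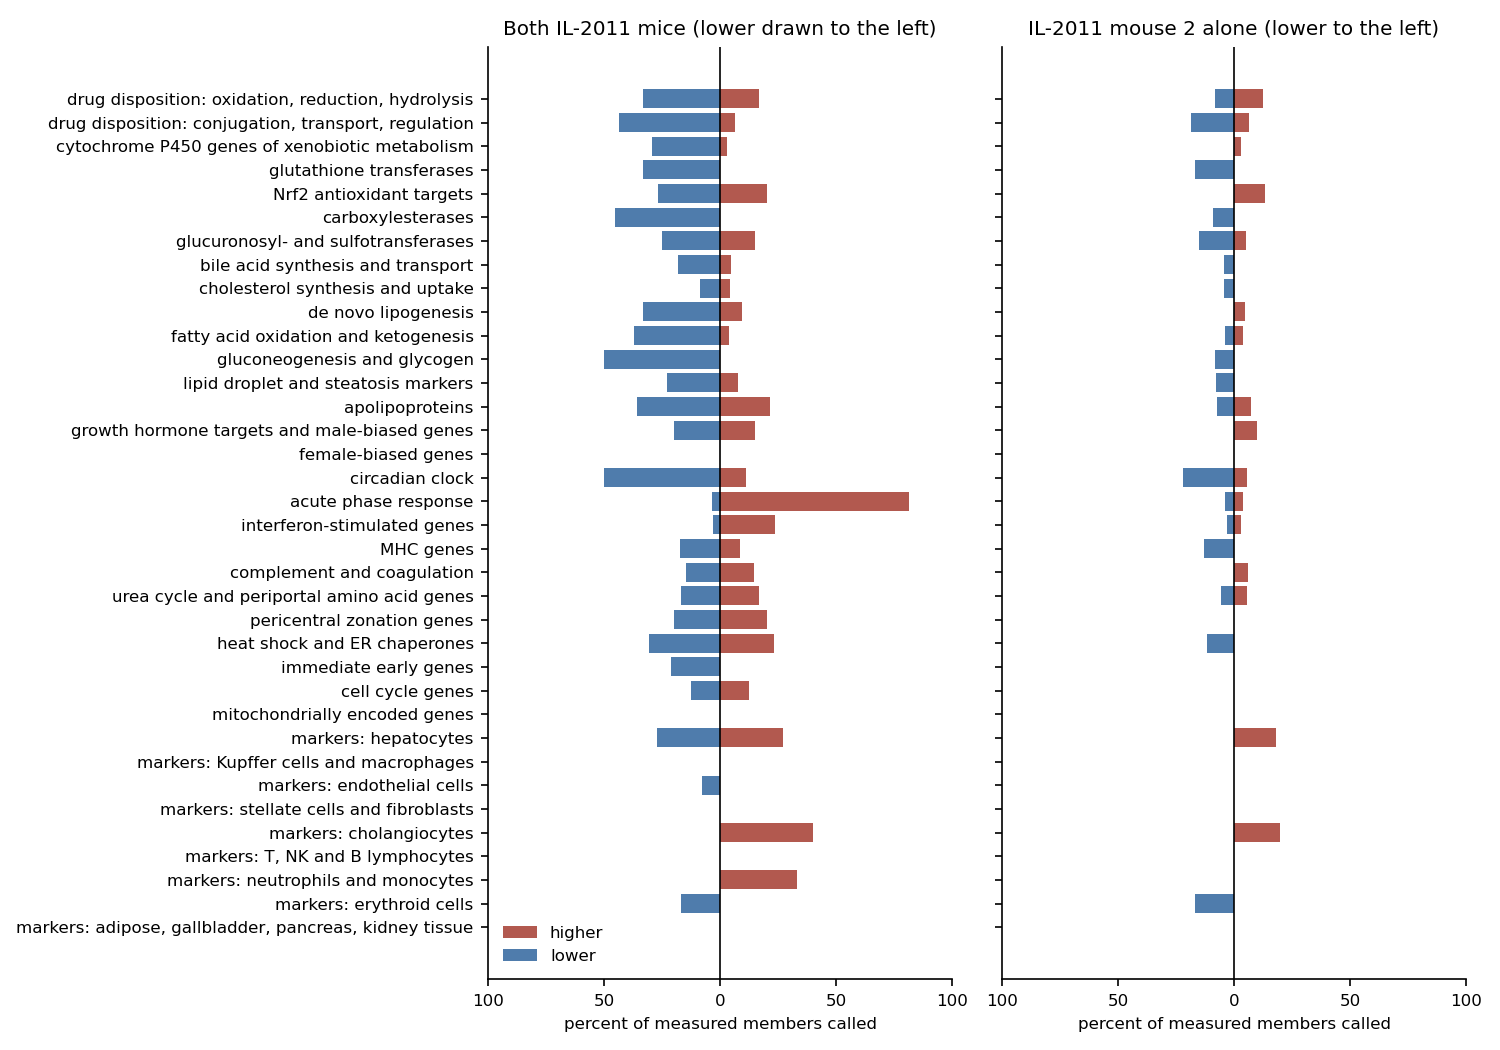
Percent of the measured members of 36 gene lists (y axis) that edgeR called higher (red, to the right) or lower (blue, to the left) in IL-2011, with both mice (left panel) and with mouse 2 alone (right panel). The acute phase bar of 22 among 27 genes nearly vanishes without mouse 1. Lists that keep lower calls there include clock, glutathione transferase, drug conjugation, glucuronosyl- and sulfotransferase, heat shock and MHC genes.

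For each of 6650 isoform ratios, RSEM's estimate of how much of a gene's output came from 1 isoform, the same rule was applied. In 12 the ratio lay above the range of the other mice in both IL-2011 mice (0.18%), and in 40 below it (0.602%). Of these 52 (0.782%), 45 had at least 100 fragments in both mice, and 5 were outside the range in FPKM too. For 10 the gap was 5 percentage points or more. The widest was in 0610008F07Rik, where an isoform (ENSMUST00000141329) had 0% in both mice and 43.6% to 100% elsewhere. The gene lies at 163319543 to 163367456 on chromosome 2 and overlaps the hepatocyte marker Hnf4a, while Serinc3 starts at 163449008. 0610008F07Rik had only 9 and 11 fragments in the IL-2011 mice.

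Better covered genes had narrower gaps. The isoform ENSMUST00000043911 of A230050P20Rik took 21.9% and 23.6%, against 38.4% to 75.3% (median 58.7%), from 1191 and 1003 fragments. In 2610005L07Rik, which lies in the stretch on chromosome 8, ENSMUST00000167037 took 31.1% and 32.9% against 44.7% to 84.0%. Rabggta, a subunit of the enzyme that attaches lipids to Rab proteins, had 33.2% and 34.1% for ENSMUST00000163889 against 42.2% to 76.8%. Trp53inp1, a stress-induced partner of p53, had 14.9% and 14.0% for ENSMUST00000029865 where the median of the others was 37.6% and the highest 63.2%.

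Abcc6, a hepatic transporter among the drug disposition genes, was outside the range in isoform ratio, while its total level was not called. Its isoform ENSMUST00000002850 took 73.8% and 74.1% in IL-2011 and 81.6% to 97.1% in the other mice, from 2185 and 2481 fragments. The isoforms ENSMUST00000134200 (17.1% and 17.2%, others at most 15.9%) and ENSMUST00000146866 (9.10% and 8.66%, others at most 8.02%) were above the range. Total Abcc6 was 21.74 and 26.60 FPKM, near the median of 23.90 (adjusted p = 0.490). For Cyp3a25, a P450 that oxidizes many drugs, ENSMUST00000145062 took 26.2% and 18.8% (0.56% to 30.1%, median 7.77%), within the range, and 2 other mice lay above both. Its minor isoform ENSMUST00000153808 took 1.28% and 0.85% and was above the range (others at most 0.72%).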

How the data were processed

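Livers of 55 male CC mice of 29 lines were analysed, and mice were assigned to lines by their labels. The authors ran RSEM 1.2.18 with default settings on paired reads, using build mm9 and Ensembl annotation. Expected counts, as deposited, estimate fragments per gene and split those that match several genes. For TPM and FPKM the authors' software divided by length and depth. Deposited isoform percentages sum over the isoforms of each gene. Positions and gene types came from GENCODE M1 (the same build), which named 37205 of 37620 genes.

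Genes with a maximum FPKM of at least 2 were kept. Expected counts were rounded and tested with edgeR version 4.0.16 (TMM, quasi-likelihood F test, 1 coefficient per line, IL-2011 against the mean of the other lines), with Benjamini-Hochberg adjustment over all genes. SE were derived from the F statistic. limma version 3.58.1 was run on 29 line means of log2(FPKM + 1), and DESeq2 version 1.42.0 as an alternative. Gaps used a pseudocount of 0.5. Copies were aligned with blastn version 2.17.0. R 4.3.3 and Python 3.11.15 were used.

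Named genes were the 15 with the widest gap on each side, those outside the range within 1 Mb of them, list genes outside the range, at most 4 per list by adjusted p, and the genes nearest the edge of the rule. Some of these genes are not reported here. Isoforms, coding counterparts and further pseudogene copies, other members of stretches (Cln8, Leap2, A830010M20Rik), and Hamp2, Serpina3m, Itih4 and Cp fall outside this rule and were chosen after their values were seen. The members and lists were chosen with earlier results of these data known. Depth was 20.5 M to 34.0 M fragments. On simulated counts for 11284 genes in this comparison, edgeR recovered 76 of 100 genes changed 2-fold and 90 of 100 changed 4-fold. It also called 24 unchanged genes. The simulation gave unchanged genes the same mean in every line, so it held no variation among lines. The changed genes were drawn from better covered ones only. Recovery and false calls in the real panel, where lines differ, were therefore not measured. Replicates are separate mice, and no batch is labelled.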

Additional observations from a re-analysis of the deposited data

How the results depend on the processing

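The edgeR count of 2665 genes (1563 higher, 1102 lower) fell to 33 (30 and 3) with lines as units and ranged from 922 to 1837 with 1 IL-2011 mouse left out (594 to 1096 higher, 328 to 741 lower). It stayed within 1.5-fold under another scaling, DESeq2, limma on single mice, other filters and other sets of lines. The 114 genes above the range became 74 with TPM, 73 with a minimum of 5 FPKM, 32 with a gap of at least 1.2-fold and 402 with line means, and 251 to 303 with 1 IL-2011 mouse. The 40 below became 66 with TMM-scaled CPM, 6 with the 1.2-fold gap and 313 with line means, and 96 to 364 with 1 mouse. A single mouse meets the rule more easily than a pair by construction. The isoform counts of 12 and 40 became 58 to 126 and 123 to 290 with 1 mouse. Members of all lists called fell from 204 to 0 with lines as units (limma), where 67 of 592 members had an unadjusted p under 0.05, and to 52 without mouse 1 and 152 without mouse 2. The 22 acute phase calls fell to 0 with lines as units (11 of 27 at an unadjusted p under 0.05) and to 1 without mouse 1 and rose to 23 without mouse 2. The alternatives that leave out a mouse for lists were chosen after seeing the data. Of 185 named genes 6 changed sign, none of them called by edgeR. With mouse 1 or mouse 2 left out, the log2 difference of Cpa1 was -1.78 and 2.41 (1.49 with both), of Hba-a2 0.19 and -0.87 (-0.24), of Hbb-b2 0.41 and -0.77 (-0.07), of Igj 0.0003 and -0.93 (-0.39), of Cd79b 1.23 and -0.029 (0.73), and of Hba-a1 0.56 and -0.42 (0.15). Cpa1 was also -0.12 in limma with pseudocount 1 and with lines as units, and -0.077 with pseudocount 0.1. Of the 148 that edgeR called, 64 lost the call without mouse 1, 30 without mouse 2 and 134 with lines as units. No paired analysis was possible because replicate numbers were given in accession order and pair no mice. Genes of low FPKM rest on few fragments.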
